A study of Mus musculus with 36 samples.

Results

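The genes described here encode proteins of the mitochondrial ribosome and were taken by name: gene symbols that begin with Mrpl or Mrps followed by a digit, with a mean of at least 1 FPKM over all libraries. FPKM divides a gene's fragments by the length of its transcript and by the size of the library, so levels of different genes can be compared per length. All 77 symbols of this form passed, 48 named for the large subunit and 29 for the small subunit, among 11144 genes that met the same threshold. The kidneys came from male wild-type C57BL/6J mice under a cycle of 12 h light and 12 h dark. From 6 weeks of age the mice had free access to normal chow or to a high-fat diet, and kidneys were taken at 16 weeks. Times are given as zeitgeber time (ZT), the hours since the lights came on, and 3 mice per diet were sampled at each of ZT0, 4, 8, 12, 16 and 20, which gave 12 groups and 36 libraries. The times are those of the sample titles; the tag that holds the diet in the labels names another time, for a reason not stated in the labels.

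The mitochondrial ribosome translates the few proteins that mitochondrial DNA encodes, all of them membrane subunits of the respiratory chain and ATP synthase. Its ribosomal RNA comes from mitochondrial DNA, whereas its proteins are encoded in the nucleus, made in the cytosol and imported. Some of these proteins have bacterial counterparts and others occur only in mitochondria. The kidney tubule, above all the proximal tubule, depends on oxidative phosphorylation to drive transport. Symbols follow the history of naming: in ribosome structures the products of Mrps30 and Mrps18a sit in the large subunit, and the product of Mrps36 is now known as a component of the 2-oxoglutarate dehydrogenase complex.

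Markers of the proximal tubule were abundant in every library, with summed levels of 48787 to 93639 FPKM in the normal chow libraries and 66454 to 90369 FPKM in the high-fat libraries. Relative depth, estimated from the spacing of low values, ranged from 0.338 to 1.45. Transcripts of neighbouring tissue were present: Cyp21a1, an adrenal steroid hydroxylase, exceeded 10 FPKM in 4 normal chow libraries (1346 FPKM in replicate 5 of ZT0, 262 FPKM in replicate 2 and 163 FPKM in replicate 3 of ZT4, 20.2 FPKM in replicate 4 of ZT16) and stayed at or below 0.255 FPKM under the high-fat diet. The summed level of 14 adipocyte markers was 234 to 3324 FPKM across normal chow libraries and 102 to 891 FPKM across high-fat libraries, and their part in the results below was not tested beyond the alternatives given. Libraries also differed in how level moved with transcript GC content, by -0.39 to 0.45 log2 units per 10 percentage points of GC under normal chow and by -0.27 to 0.27 under the high-fat diet. In bulk tissue, a change in the share of a cell type and a change in RNA per cell cannot be told apart.

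The mitoribosomal genes were expressed across a 162.7-fold range of mean levels, although the proteins are assembled into 1 particle. The highest was Mrps21, a small subunit protein with a bacterial counterpart, at 619 ± 79.6 FPKM (SD, n = 36). Mrpl12, which forms the stalk that recruits translation factors and also binds the mitochondrial RNA polymerase, followed at 314 ± 39.9 FPKM. Next came Mrpl42 at 238 FPKM, Mrpl20 at 206 FPKM and Mrpl33 at 156 FPKM. These 5 genes held 28.1% of the summed FPKM of the 77. The lowest were Mrpl19 at 3.80 ± 0.365 FPKM (SD, n = 36), Mrpl1 at 5.85 FPKM, Mrpl17 at 7.25 FPKM, Mrpl15 at 8.55 FPKM and Mrpl35 at 8.85 FPKM, all proteins with bacterial counterparts. No gene of the family lay below the threshold of 1 FPKM, so none was lost to it. Between the ends the family was compact: 66 members had means between 10 and 200 FPKM, and the medians of the large and small subunit members were 51.4 and 49.1 FPKM.

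**Figure D1:**
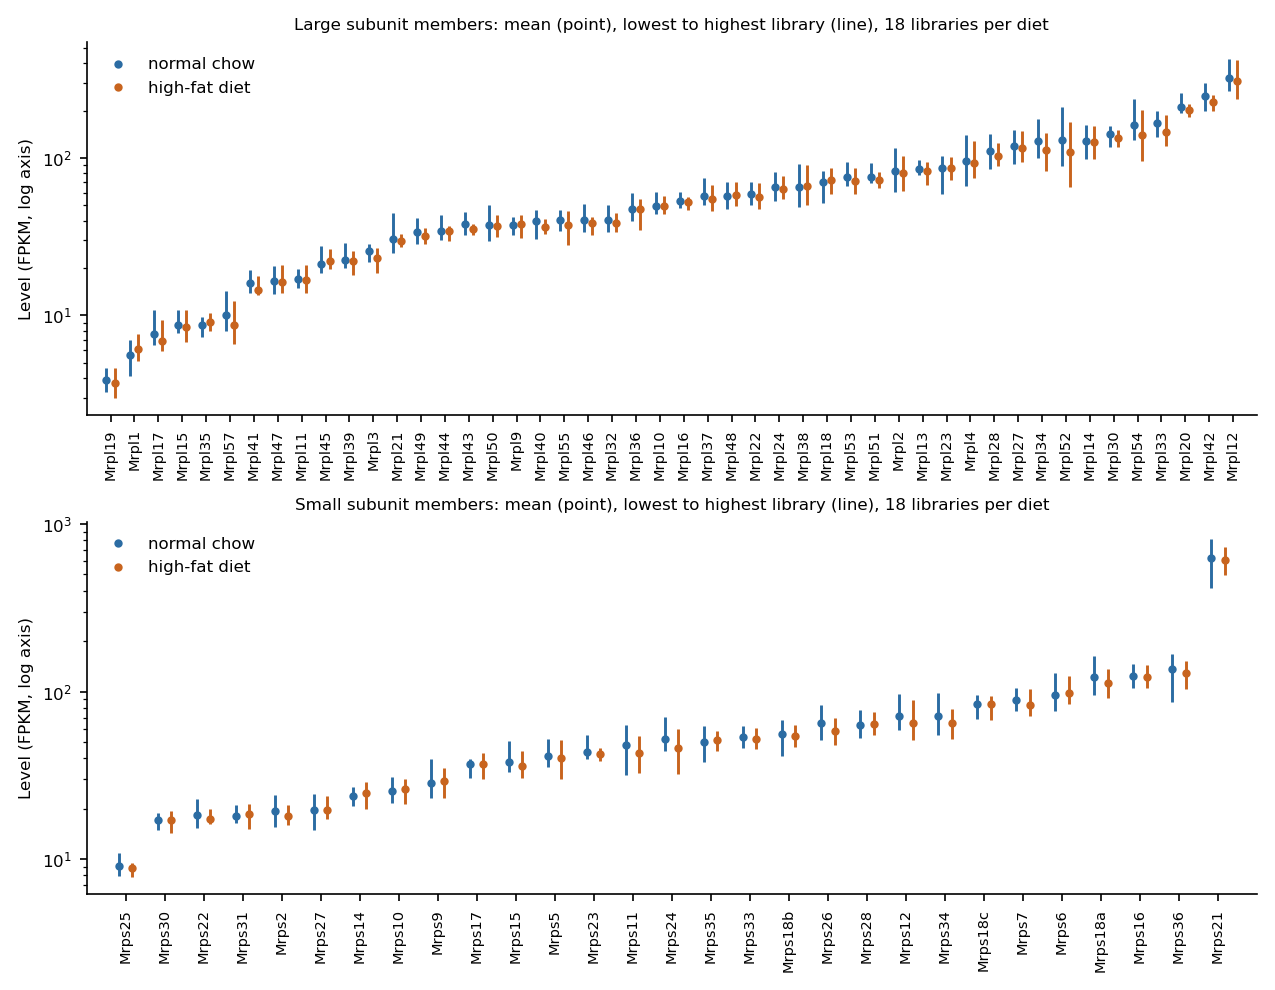
Level of each mitoribosomal gene in FPKM on a log axis, large subunit symbols above and small subunit symbols below, ordered by mean. Points are means and lines run from the lowest to the highest of 18 libraries per diet. The ranges of the 2 diets overlap for all 77 genes, which was not counted over all genes. Mrps21 stands above the other small subunit genes.

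Each gene kept to its own level. The median coefficient of variation over the 36 libraries was 9.99% among the members. Among all genes at least as high as the lowest member, a set not matched for level, it was 14.6%. Among the members the coefficient was smallest for Mrpl16, at 6.12%, and largest for Mrpl52, at 24.2%. Mrpl52 ran from 65.1 FPKM in a high-fat ZT8 library to 211 FPKM in a normal chow ZT4 library. The extremes of many members fell in the same few libraries. The normal chow ZT4 replicate 2 library was the highest of the 36 for 39 members and the normal chow ZT0 replicate 1 library for 15. The normal chow ZT4 replicate 4 and high-fat ZT8 replicate 1 libraries were the lowest for 14 members each, and the high-fat ZT16 replicate 1 library for 12. The slope of level over GC content was 0.45 in that ZT4 replicate 2 library, which also carries adrenal transcripts, and -0.39, -0.27 and -0.27 in the last 3 libraries named.

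Members with a role or a paralog of note lay within the same range. Mrpl10, which anchors the stalk formed by Mrpl12, was at 49.6 ± 3.46 FPKM (SD, n = 36), and Mrps36 was at 133 ± 16.0 FPKM. Mrpl44, a protein with a ribonuclease-like fold, was at 34.6 ± 2.46 FPKM, and Mrps12, a part of the decoding centre, at 67.9 ± 9.82 FPKM. The 3 homologues of a single bacterial protein differed in level: Mrps18a, incorporated into the large subunit, was at 117 ± 15.4 FPKM, Mrps18c at 84.3 ± 6.40 FPKM and Mrps18b at 55.1 ± 5.01 FPKM. The ranges of Mrps18b, 41.3 to 67.6 FPKM, and Mrps18c, 67.5 to 95.4 FPKM, met only at their ends. Mrps30, which is linked to cell death in other settings, was at 17.2 ± 1.37 FPKM.

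Daily rhythm was asked first, as whether level follows a 24 h curve within a diet. A 24 h curve was fitted with limma to the 18 libraries of a diet and its F test taken, on log2(FPKM + 0.5), with p-values adjusted over all genes tested and a threshold of 0.05. Few mitoribosomal genes passed: 2 of 77 (2.6%) under normal chow, where 7.77% of all genes passed, and 3 of 77 (3.9%) under the high-fat diet, where 7.3% of all genes passed. At an unadjusted p under 0.05 the counts were 17 (22.1%; all genes 22.8%) and 13 (16.9%; all genes 20.8%). The genes that passed were Mrps9 and Mrps10 under normal chow, and Mrpl45, Mrpl36 and Mrps9 under the high-fat diet. Mrps9 was the 1 member that passed in both. These calls depended on the processing: of 13 alternative analyses, Mrps10 under normal chow passed in 4 (highest adjusted p = 0.227) and Mrps9 in 11, and under the high-fat diet Mrpl45 passed in 8, Mrps9 in 9 and Mrpl36 in 10.

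Mrps9, a protein of the head of the small subunit with a bacterial counterpart, was highest at ZT8 under both diets. Under normal chow its levels at ZT8 were 32.2, 39.4 and 30.3 FPKM, against 26.6, 23.2 and 23.4 FPKM at ZT16 and 24.6, 24.4 and 24.3 FPKM at ZT20. Under the high-fat diet they were 32.5, 34.9 and 34.2 FPKM at ZT8, against 23.3, 24.6 and 26.9 FPKM at ZT20. In both diets every ZT8 library was above every ZT20 library. The fitted peak-to-trough difference was 0.43 ± 0.08 log2 (SE), or 1.35-fold, under normal chow (adjusted p = 0.00974, n = 18). It was 0.34 ± 0.08 log2, or 1.26-fold, under the high-fat diet (adjusted p = 0.0413, n = 18). The fitted peaks were at 7.16 ± 0.743 h and 6.82 ± 0.940 h (SE).

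Mrps10, also a conserved protein of the small subunit head, peaked in the same part of the light phase. Its levels under normal chow were 27.3, 27.6 and 28.3 FPKM at ZT8 and 23.4, 22.1 and 22.6 FPKM at ZT16, without overlap. The difference fitted was 0.32 ± 0.08 log2 with a peak at 5.57 h (adjusted p = 0.0376). Under the high-fat diet the difference was 0.26 ± 0.07 log2 with a peak at 7.67 h and did not pass (adjusted p = 0.0774). Mrpl2, which lies near the catalytic centre of the large subunit, had under normal chow 87.0, 89.8 and 89.7 FPKM at ZT8 against 71.4, 61.2 and 69.9 FPKM at ZT16. Its fitted difference of 0.41 ± 0.11 log2, peak at 6.20 h, missed the threshold (adjusted p = 0.0607), as did that of Mrps18c, at 0.25 log2 with a peak at 10.2 h (adjusted p = 0.0676).

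The other members that passed under the high-fat diet peaked at the end of the dark phase or just after lights on. Mrpl36, a small protein of the large subunit, had 46.9, 50.5 and 54.5 FPKM at ZT20 and 35.0, 43.4 and 44.9 FPKM at ZT8, without overlap. Its fitted difference was 0.31 ± 0.07 log2 with a peak at 22.4 h (adjusted p = 0.0307). Under normal chow the same gene had 53.4, 60.2 and 54.9 FPKM at ZT20 and 40.6, 47.1 and 41.3 FPKM at ZT8; the difference of 0.31 ± 0.09 log2 with a peak at 21.7 h did not pass (adjusted p = 0.0900). Mrpl45, which helps to hold the ribosome at the inner membrane, had 24.1, 24.3 and 23.2 FPKM at ZT0 and 20.2, 19.8 and 19.9 FPKM at ZT12 under the high-fat diet. Its fitted difference was 0.25 ± 0.06 log2 with a peak at 2.22 h (adjusted p = 0.0292).

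**Figure D2:**
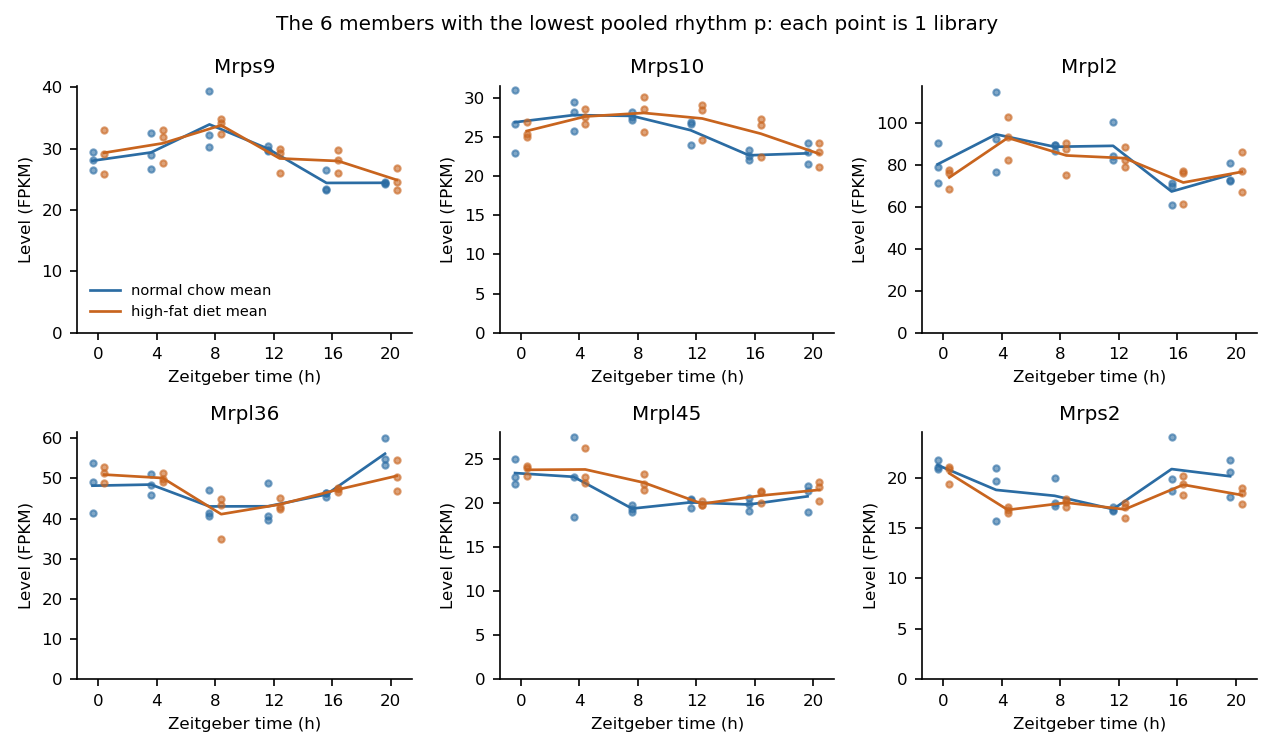
Level in FPKM against zeitgeber time in hours for the 6 mitoribosomal genes with the lowest p in the rhythm test over both diets. Each point is 1 library and lines join the means of 3; Mrps9, Mrps10 and Mrpl2 are highest at ZT4 or ZT8 in both diets, and Mrpl36 at ZT20 under normal chow and at ZT0 under the high-fat diet.

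Pooling both diets, with diet as a term in the model and all 36 libraries, 20 of 77 members passed (26%), beside 25.3% of all genes. These were 13 of 48 large subunit and 7 of 29 small subunit symbols. The fitted differences were small. The median over all 77 members was 0.13 log2, against 0.19 log2 over all genes. A fitted difference is never negative, so spread between libraries adds to it, and all genes were not matched to the members for level. The widest differences among the members were those of Mrpl52 (0.39 log2, adjusted p = 0.0497), Mrps9 (0.39 log2, adjusted p = 1.75e-05), Mrpl2 (0.35 log2, adjusted p = 0.00138) and Mrpl34 (0.33 log2, adjusted p = 0.0127).

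The peaks of the members that passed lay in 2 windows. A fitted peak between 20 and 4 h, around the change from dark to light, was found for 17 of the 20 (85%); among all 2817 genes that passed, 1188 (42.2%) peaked there. The share depended on the processing: it was 4 of 8 (50%; all genes 29.1%) with each library's trend over GC content removed, 7 of 13 (53.8%; all genes 33.5%) after rescaling by median ratios, and 2 of 6 (33.3%; all genes 17.1%) without ZT0 and ZT4. They included Mrpl36 at 22.0 h (0.31 log2, adjusted p = 0.000313), Mrpl45 at 1.55 h (0.24 log2, adjusted p = 0.00177) and Mrps2 at 21.2 h (0.23 log2, adjusted p = 0.00740). Mrpl42 at 20.8 h, Mrpl33 at 22.1 h, Mrpl34 at 23.1 h and Mrpl13 at 23.4 h, as well as Mrps33 at 0.288 h and Mrpl22 at 0.625 h, peaked in the same window, with differences from 0.17 log2 for Mrps33 to 0.33 log2 for Mrpl34. The remaining 3 peaked between 4 and 8 h: Mrpl2 at 6.30 h, Mrps10 at 6.51 h (0.28 log2, adjusted p = 0.000416) and Mrps9 at 7.01 h. None of the 20 peaked between 8 and 20 h, where 456, 141 and 186 of all genes that passed had their peaks in successive windows of 4 h. Counting every member whether or not it passed, 52 of 77 (67.5%) had a fitted peak between 20 and 4 h, as did 42.3% of all genes. The window was not particular to the family: 77 of 82 cytosolic ribosomal protein genes and 67 of 79 oxidative phosphorylation genes had their fitted peaks there.

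**Figure D3:**
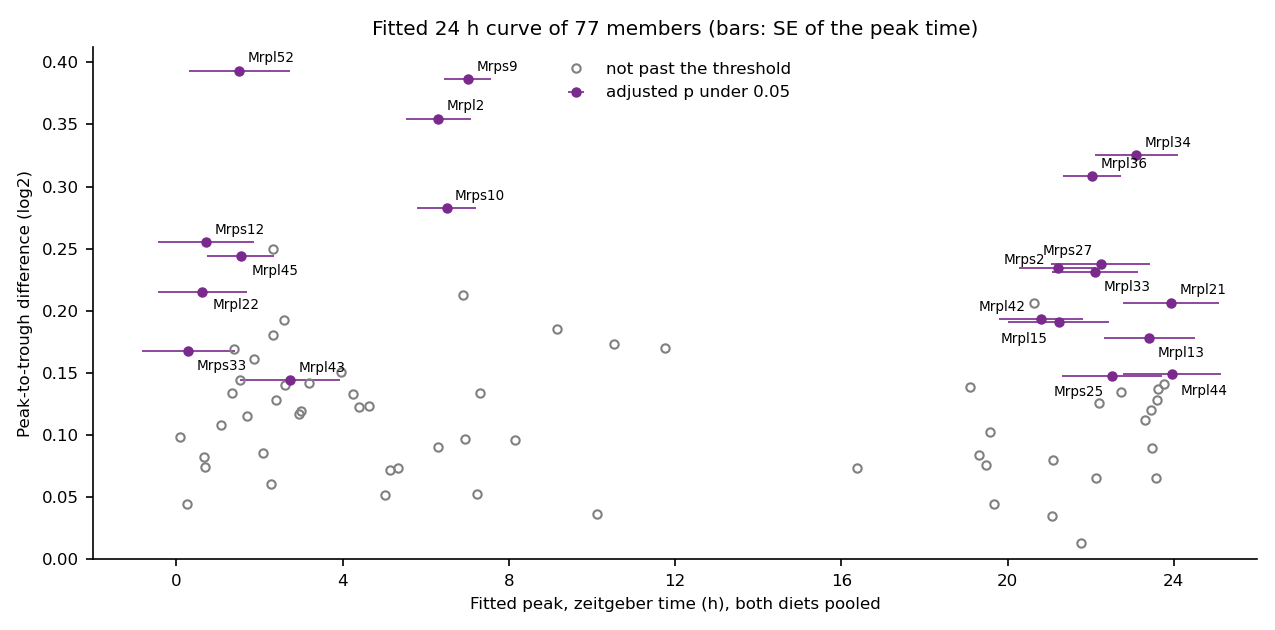
Fitted peak time in hours (x) against the fitted peak-to-trough difference in log2 (y) for 77 mitoribosomal genes, both diets pooled; filled points passed the rhythm test and bars are SE of the peak time. Of the 20 filled points 17 lie between 20 and 4 h, and Mrps9, Mrpl2 and Mrps10 form a separate group between 6 and 8 h.

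In the test over both diets, Mrps9, Mrps10, Mrpl2 and Mrpl36 passed in all 13 alternative analyses, with the highest adjusted p among them 0.000693, 0.0104, 0.0225 and 0.00198, and also when each of the 36 libraries was left out in turn. With each library's trend over GC content removed 8 members passed (6 of them among the 20). All genes that passed then rose from 2817 to 3415 of 11144. Without the 4 libraries that carry adrenal transcripts 12 members passed (all genes 2315). Without ZT0 and ZT4 the count was 6 (all genes 1739). The 3 members that peaked between 4 and 8 h were among the members that passed in each case. Members that passed with a peak between 20 and 4 h numbered 4, 9 and 2 in place of 17.

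Upstream sequences are shown for the light-phase members Mrps9 and Mrpl2, for Mrpl36, the dark-phase member with the lowest p, and for Mrpl33, the member with the lowest p for diet. They are the 200 bases before the RefSeq transcription start on GRCm38.p6, plus strand, with letters that match a searched motif in capitals: for Mrps9 chr1:42851033-42851232, for Mrpl2 chr17:46646021-46646220, for Mrpl36 chr13:73330809-73331008 and for Mrpl33 chr5:31613751-31613950.
Mrps9: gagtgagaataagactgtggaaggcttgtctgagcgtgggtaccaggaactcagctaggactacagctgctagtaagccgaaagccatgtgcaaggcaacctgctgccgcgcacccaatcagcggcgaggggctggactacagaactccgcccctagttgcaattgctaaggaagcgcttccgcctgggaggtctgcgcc
Mrpl2: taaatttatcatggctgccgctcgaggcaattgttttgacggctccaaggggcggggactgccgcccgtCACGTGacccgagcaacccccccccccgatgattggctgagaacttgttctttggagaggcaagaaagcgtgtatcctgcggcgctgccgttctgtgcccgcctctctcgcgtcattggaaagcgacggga
Mrpl36: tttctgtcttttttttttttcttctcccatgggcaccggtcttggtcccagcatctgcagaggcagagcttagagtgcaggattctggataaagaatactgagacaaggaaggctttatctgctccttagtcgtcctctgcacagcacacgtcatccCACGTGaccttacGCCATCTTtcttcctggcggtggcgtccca
Mrpl33: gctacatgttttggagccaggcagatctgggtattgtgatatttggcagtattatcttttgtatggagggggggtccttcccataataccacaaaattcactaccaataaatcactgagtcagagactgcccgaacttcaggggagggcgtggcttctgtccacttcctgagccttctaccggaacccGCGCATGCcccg

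Mrpl2 and Mrpl36 hold the E-box CACGTG, the letters bound by clock proteins of the CLOCK and BMAL1 type, 131 and 43 bases before the start. In Mrpl36 the YY1 letters AAGATGGC stand on the opposite strand 30 bases before the start. Mrpl33 holds the NRF1 letters GCATGCGC, on the opposite strand, 12 bases before the start. The stretch of Mrps9 holds none of the 5 motifs searched. Windows from 250 bases before to 50 bases after the start were matched for 68 of the 77 members and for 8511 of all genes tested, and both strands were searched. CACGTG was present in 5 members (7.35%) and in 12.1% of all genes. The ETS letters CCGGAAG were present in 25 members (36.8%; 20.5% of all genes), GCATGCGC in 8 (11.8%; 5.95%) and AAGATGGC in 12 (17.6%; 5.57%). The D-box letters TTATGTAA were present in none, and in 0.775% of all genes. A match describes letters, not a bound site.

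The difference in rhythm between diets was tested on all 36 libraries by letting the fitted 24 h curve differ with diet. No member passed this limma test, nor among all genes did more than 0.0269%; 2 members (2.6%; all genes 3.17%) had an unadjusted p under 0.05. The lowest p values belonged to Mrps18c (0.00349), Mrps17 (0.0202), Mrps35 (0.0811) and Mrpl33. A test of any diet by time interaction among the 12 group means also called no member, beside 0.0179% of all genes, and had the same 2 genes at an unadjusted p under 0.05, followed by Mrpl39 (0.0719) and Mrpl44 (0.0965). These had adjusted p values of 0.999 or above.

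Mrps18c, 1 of the 3 homologues named above, had the lowest p in both tests. At ZT0 its levels were 68.6, 76.0 and 77.1 FPKM under normal chow and 86.1, 91.2 and 87.0 FPKM under the high-fat diet. At ZT12 they were 88.5, 94.2 and 95.4 FPKM under normal chow and 67.5, 85.4 and 80.5 FPKM under the high-fat diet. The diets did not overlap at either time and lay in opposite order, but neither the difference at ZT0, 0.25 ± 0.08 log2 (adjusted p = 0.0991), nor that at ZT12, -0.26 ± 0.08 log2 (adjusted p = 0.193), passed. At the other 4 times its difference was between -0.02 and 0.04 log2. Mrps17, a conserved small subunit protein, differed most at ZT4, by 0.22 ± 0.07 log2 (adjusted p = 0.123).

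Level was then compared between diets as the mean of the 6 high-fat group means minus that of the 6 normal chow group means. No member was higher under the high-fat diet, where 5.25% of all genes were, and 12 of 77 (15.6%) were lower, where 11.4% of all genes were. By symbol, 10 of the 12 belong to the large subunit and 2 to the small subunit. The decreases were slight: the median difference over the 77 members was -0.04 log2, against -0.03 log2 over all genes, and moved towards 0 with both rescalings (-0.01 after median ratios and -0.01 after the upper quartile) and with the GC trend removed (-0.02). The extremes were -0.24 log2 for Mrpl52 and 0.12 log2 for Mrpl1, which did not pass (adjusted p = 0.126). The difference was negative for 59 of the 77 members (76.6%) and for 61.3% of all genes. It was negative at all 6 times for 17 members (22.1%; all genes 13.8%) and positive at all 6 for none (all genes 6.32%). Whether the deposited tables of the 2 diets were normalized together is not stated, so a shift common to all genes between the diets and a difference in scaling cannot be told apart.

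Mrpl33, a conserved protein of the large subunit, had the lowest p. Its level under normal chow had a lowest, median and highest value of 136, 168 and 199 FPKM (n = 18), and under the high-fat diet 120, 148 and 188 FPKM (n = 18). The ranges overlapped, with the high-fat libraries shifted down. The difference was -0.18 ± 0.04 log2 (SE), or 1.14-fold lower (adjusted p = 0.00254), and it was largest at ZT16, at -0.34 log2. Mrpl52, found in mitochondria only, was lower by the widest margin: the lowest, median and highest values were 89.4, 117 and 211 FPKM under normal chow and 65.1, 106 and 170 FPKM under the high-fat diet. Its difference was -0.24 ± 0.08 log2 (adjusted p = 0.0368).

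Among the others with bacterial counterparts, Mrpl3, near the catalytic centre, fell from 25.5 ± 1.73 to 23.1 ± 1.92 FPKM (SD, n = 18 each; -0.14 log2, adjusted p = 0.0101). Mrpl34 fell from 128 to 112 FPKM (-0.19 log2, adjusted p = 0.0302), and Mrps24 from 51.9 to 46.4 FPKM (-0.16 log2, adjusted p = 0.0313). The rest are proteins that bacteria lack. Mrpl41 fell from 16.2 to 14.5 FPKM, Mrpl43 from 38.3 to 35.4 FPKM and Mrpl57 from 10.01 to 8.69 FPKM (-0.15, -0.11 and -0.19 log2). Mrps26 fell by 0.16, Mrpl40 by 0.12, Mrpl42 by 0.11 and Mrpl54 by 0.20 on the log2 scale, each with an adjusted p between 0.0410 and 0.0433. Of these 12 genes, 8 were lower at all 6 times, and Mrpl33, Mrpl43, Mrpl52 and Mrpl57 at 5. Mrpl33, Mrpl34, Mrpl42, Mrpl43 and Mrpl52 passed both this test and the rhythm test over both diets, and 50 of the 77 members passed neither this test nor any rhythm test.

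**Figure D4:**
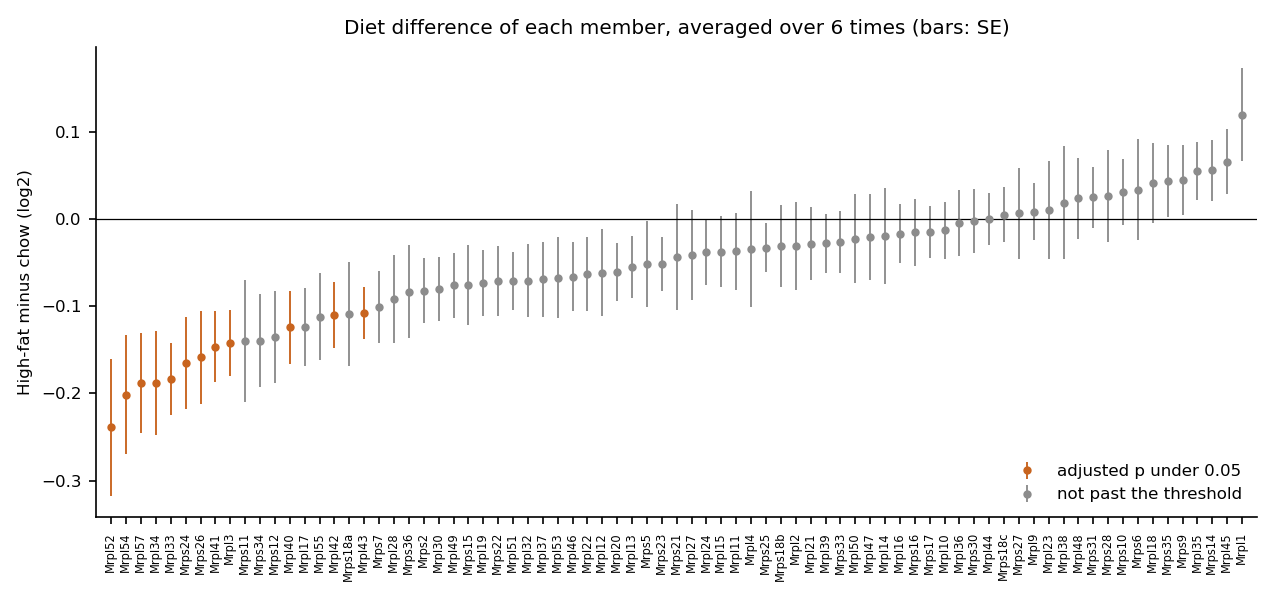
High-fat minus normal chow difference in log2, averaged over the 6 times, for 77 mitoribosomal genes in order of size; bars are SE. The 12 genes that passed are all negative, from -0.24 for Mrpl52 to -0.11 for Mrpl43, and 59 of the 77 differences are below 0.

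Several measures of the libraries were also compared between the diets. Of 14 adipocyte markers, 10 were lower and 1 was higher under the high-fat diet, with median summed levels of 970 FPKM under normal chow and 323 FPKM under the high-fat diet. Of the nephron markers, 3 of 7 collecting duct and 3 of 7 proximal tubule markers were lower. Of 4 distal convoluted tubule markers 2 were lower and 1 was higher. No call was made among 4 thick ascending limb and 5 podocyte markers. Median differences were -0.24 log2 for collecting duct, -0.03 for proximal tubule and -0.01 for distal convoluted tubule markers. Of all genes 11.4% were lower and 5.25% higher. With the adipocyte score of each library as a covariate 1 member was called lower, where 5% of all genes were. The median over the 77 members was then -0.04 log2. The 12 differences ran from -0.18 to -0.09 log2, with a median of -0.14 (reported -0.16). The mean slope of level over GC content was 0.03 in normal chow (SD 0.19) and -0.03 in high-fat libraries (SD 0.13). Slopes were taken around each gene's mean, so these means mirror each other. With that trend removed from each library no member passed, while 10.8% of all genes were called higher and 8.1% lower. The 12 differences then ran from -0.22 to -0.07 log2 (reported -0.24 to -0.11), with a median of -0.11 (reported -0.16). These 12 had been chosen as lower in the same libraries, so a kept sign was likely in either fit. Across the 77 members the difference between diets had a Pearson r of -0.34 with GC content, as a description over genes that share libraries. Its part in the calls was not tested beyond that. The members called lower had a median transcript of 828 nucleotides, against 1134 for the other members. After rescaling by median ratios the split was 1 higher (Mrpl1) and 1 lower (Mrpl33) in place of 0 and 12. Of all genes 7.5% were then higher and 7.49% lower. After rescaling by the upper quartile the split was 0 and 2, beside 7.54% and 7.5% of all genes.

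**Figure D5:**
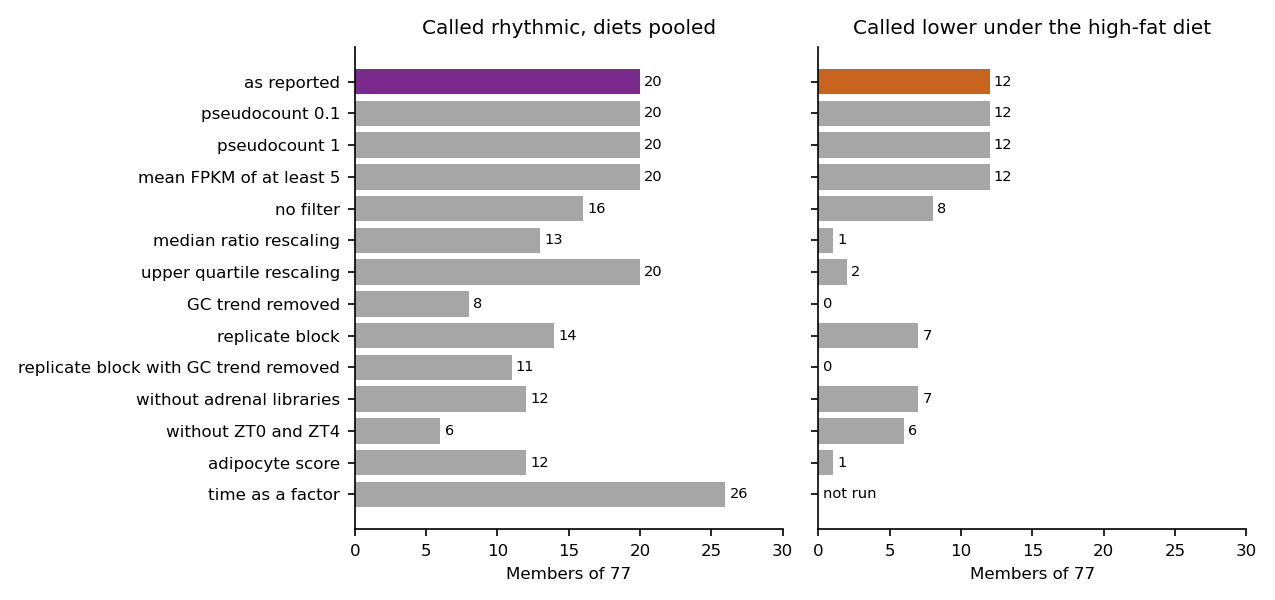
Number of the 77 mitoribosomal genes called rhythmic over both diets (left) and called lower under the high-fat diet (right) in the analysis reported and in each alternative. The rhythm count runs from 6 to 26 and the diet count from 0 to 12; time as a factor was run for rhythm only.

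At single times, with 3 libraries against 3, no member passed limma's test at any of the 6. The share of all genes that passed was 1.59% at ZT0, 1.61% at ZT4, 0.332% at ZT8, 0.368% at ZT12, 0.556% at ZT16 and 0.26% at ZT20. The members with an unadjusted p under 0.05 numbered 8, 5, 2, 5, 4 and 2, or 10.4, 6.49, 2.6, 6.49, 5.19 and 2.6%, beside 14.1, 17.3, 9.57, 7.12, 7.32 and 6.45% of all genes. The median difference of the members was -0.10 log2 at ZT0 (all genes -0.05), -0.09 log2 at ZT20 (all genes -0.02) and -0.08 log2 at ZT12 (all genes -0.01). It was -0.02 log2 at ZT8 (all genes 0.01) and -0.01 log2 at ZT16 (all genes 0.002). At ZT4 the order was the other way, with -0.03 log2 for the members and -0.11 log2 for all genes. Without the 4 adrenal libraries, which leaves a single normal chow library at ZT4, 21 members (27.3%) were called at ZT4, 18 higher and 3 lower, beside 44.3% of all genes. That library, replicate 4, is the 1 with the GC slope of -0.39, and it is assumed to vary as the other groups do. Without normal chow ZT4 replicate 2 alone there were 5.

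Other genes of mitochondrial translation were taken from lists chosen by function. Among 6 ribosomal proteins with other symbols, Gadd45gip1, a large subunit protein, was lower under the high-fat diet (21.0 ± 4.61 to 17.7 ± 2.67 FPKM, SD, n = 18 each; -0.23 log2, adjusted p = 0.0300). It also passed the pooled rhythm test with a peak at 0.871 h (adjusted p = 0.0187), as did Chchd1, a small subunit protein, at 20.8 h (adjusted p = 0.0337). Among 26 genes of ribosome assembly and ribosomal RNA modification, 3 were lower (11.5%; all genes 11.4%) and none was higher. They were Mpv17l2, an inner membrane protein needed for assembly (-0.26 log2, adjusted p = 0.00571), Mtg2, an assembly GTPase (-0.18 log2, adjusted p = 0.0205), and Mterf4, a partner of the RNA methyltransferase Nsun4 (-0.13 log2, adjusted p = 0.0297). The pooled rhythm test passed 5 of the 26 (19.2%; all genes 25.3%): Mterf4 at 0.266 h, the helicase Ddx28 at 0.595 h, the pseudouridine synthase family member Rpusd3 at 6.68 h, and the methyltransferases Ftsj2 at 22.4 h and Rnmtl1 at 22.2 h.

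Among 17 translation factors and associated proteins, Oxa1l, the insertase that receives newly made proteins at the inner membrane, was lower under the high-fat diet, at 24.5 ± 2.41 FPKM against 27.6 ± 2.89 FPKM (SD, n = 18 each; -0.17 log2, adjusted p = 0.000943). Its rhythm passed under normal chow (0.33 log2, peak at 6.87 h, adjusted p = 0.0195) and over both diets (peak at 6.76 h, adjusted p = 5.2e-05). Tsfm, an elongation factor, peaked at 5.59 h (adjusted p = 0.00983) and the recycling factor Mrrf at 0.325 h (adjusted p = 0.0115). Of 9 genes of mitochondrial DNA replication and transcription, Polg2, the accessory subunit of the DNA polymerase, passed under normal chow (0.69 log2, peak at 6.76 h, adjusted p = 0.0133) and over both diets (0.60 log2, peak at 7.03 h, adjusted p = 8.8e-05), at a mean of 3.73 FPKM under normal chow. Oxa1l, Tsfm, Rpusd3 and Polg2 had peaks between 4 and 8 h, the window that held 30% of all genes that passed. Gadd45gip1, Chchd1, Mterf4, Ddx28, Ftsj2, Rnmtl1, Mrrf and Gabpb1, from the same lists, also passed over both diets and peaked outside it. Whether genes of these lists gathered in that window was not tested. Of 9 regulators of mitochondrial biogenesis, Nrf1 (-0.19 log2, adjusted p = 0.00364) and Esrra (-0.09 log2, adjusted p = 0.0407) were lower under the high-fat diet. That is 22.2% of the list, beside 11.4% of all genes. Myc, at 1.65 ± 0.756 FPKM under normal chow (SD, n = 18), passed the rhythm test under normal chow (1.17 log2, peak at 22.2 h, adjusted p = 0.00277). Gabpb1 passed the rhythm test over both diets (0.34 log2, peak at 22.4 h, adjusted p = 0.0101).

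Genes of the cytosolic ribosome and of oxidative phosphorylation were set beside the family. The pooled rhythm test passed 13 of 82 cytosolic ribosomal protein genes (15.9%), 12 of them with a peak between 20 and 4 h. It passed 8 of 79 oxidative phosphorylation genes (10.1%), 7 of them in that window. For the mitochondrial family the counts were 20 and 17. Of all genes 25.3% passed, and 42.2% of those peaked in that window. Whether or not they passed, 77 of the 82, 67 of the 79 and 52 of the 77 genes had a fitted peak there. Median levels were 587 FPKM, 462 FPKM and, for the mitochondrial family, 49.6 FPKM, and median peak-to-trough differences were 0.14, 0.12 and 0.13 log2. In level, 7 of the 82 cytosolic genes (8.54%) were lower and none was higher, beside 11.4% and 5.25% of all genes. Among them Rpl35 fell from 869 to 768 FPKM (adjusted p = 0.0223). Of the 79 oxidative phosphorylation genes 4 (5.06%) were lower, such as Ndufc1 (-0.14 log2, adjusted p = 0.00859), and 3 were higher, such as Sdhc (0.11 log2, adjusted p = 0.00664). Differences between these lists were not tested. No transcript of mitochondrial DNA had a row, so the ribosomal RNA and the messages that this ribosome translates were not analysed here.

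Some of the values may hold reads of other genes, because the library kit does not mark strand. Exons of 32 members overlap those of another gene on GRCm38, 27 of them on the opposite strand. Among genes named above, 30 exonic bases of Mrpl36 are shared with Ndufs6, which is expressed at 613 FPKM, and 33.4% of the exonic bases of Mrpl43 are shared with Twnk. Mrps25, which was rhythmic over both diets, shares 69.8% of its exonic bases with Nr2c2 (0.154 FPKM). A divergent neighbour with its start 26 to 935 bases away was annotated for 18 members, the ends of this range being Apba3 beside Mrpl54 and Pnpla7 beside Mrpl41; Klc4 starts 207 bases from Mrpl2. Mrps9 (GENCODE chr1:42851233-42905683), Mrps10 (chr17:47368887-47381417) and Mrpl2 (chr17:46646229-46650139), the members with light-phase peaks, share no exonic bases with another annotated gene.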

How the data were processed

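The authors deposited 1 table of FPKM per diet, made with CASAVA 1.8.2, Bowtie and Cuffnorm on mm10 per the submitters' processing notes; the other versions are not stated there, nor whether both tables were normalized together. FPKM holds no read total, so depth is known only in relative terms. Of 24883 rows, 817 with 280 repeated symbols were dropped, none of a member. Genes with a mean of at least 1 FPKM were tested on log2(FPKM + 0.5) with limma 3.58.1 in R 4.3.3, with Benjamini-Hochberg adjustment over 11144 genes; fold changes are on that scale and understate low genes. Rhythm fits used a 24 h period. The code was tested on simulated data. Each library is labelled as a separate sample, and p-values measure the spread between these. Members and gene lists were chosen with earlier results of these data known. Named are up to 12 called members per test by p, the 4 lowest p where fewer than 4 were called, the 5 highest and 5 lowest by level, the 4 widest rhythms, members with a role or paralog of note, and up to 4 called genes per list; genes named in other places were chosen after their values were seen. Gene coordinates are GENCODE M21 on GRCm38; promoter sequences are RefSeq, GRCm38.p6. Alternatives changed the pseudocount, filter, scaling, GC trend, adipocyte covariate, replicate block, rhythm model and libraries.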

Additional observations from a re-analysis of the deposited data

How the results depend on the processing

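Of 157 recomputed counts that did not leave out a single library, 124 stayed within 1.5 times the reported value and 33 moved. Many of the 157 belong to results with a reported count of 0. For results with a reported count above 0, fewer stayed: 7 of 13 for rhythm under normal chow and 9 of 13 under the high-fat diet. Over both diets 7 of 13 stayed, and 4 of 12 for members lower under the high-fat diet. At ZT4 the median difference of the members, -0.03 log2, changed sign. It was 0.08 with median ratio scaling, 0.05 with upper quartile scaling and 0.12 with the GC trend removed. The median difference between diets over the day, -0.043 log2, shrank to -0.0108 with median ratio scaling and -0.0085 with upper quartile scaling. It was -0.0181 with the GC trend removed and -0.0143 with the replicate block and GC trend removed. The spread between single libraries of a group was 0.077 log2 (SD of the mean over members). That value describes single libraries and is not the error of a difference between means of 18 libraries per diet. The members called rhythmic under normal chow went from 2 to 1 with median ratio scaling, upper quartile scaling, the adipocyte score or without ZT0 and ZT4, to 4 with the GC trend removed and to 0 with time as a factor. Under the high-fat diet they went from 3 to 1 with median ratio scaling, to 0 with the replicate block or without ZT0 and ZT4, and to 10 with time as a factor. Over both diets they went from 20 to 13 with median ratio scaling (all genes 2817 to 2623). They were 8 with the GC trend removed (all genes 3415) and 11 with the replicate block and GC trend removed (3326). They were 12 without adrenal libraries (2315), 12 with the adipocyte score (2550) and 6 without ZT0 and ZT4 (1739). Members lower under the high-fat diet went from 12 to 1 with median ratio scaling, 2 with upper quartile scaling, 0 with the GC trend removed, 7 with the replicate block, 0 with the replicate block and GC trend removed, 7 without adrenal libraries, 1 with the adipocyte score, and 6 without ZT0 and ZT4; 1 was higher with median ratio scaling and 1 without adrenal libraries. The interaction called 6 without adrenal libraries. At ZT0 upper quartile scaling called 1; at ZT4 median ratio scaling, upper quartile scaling and GC removal called 1 each, and 21 were called without adrenal libraries; at ZT16, 1 was called without ZT0 and ZT4. The cause was not tested.

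Leaving out each library in turn gave 1 to 4 rhythmic members under normal chow (4 without ZT0 replicate 4; 1 without ZT0 replicate 5, ZT4 replicate 2 or any 1 library of ZT8, ZT16 or ZT20). It gave 0 to 4 under the high-fat diet (0 without ZT12 replicate 5; 1 without ZT0 replicates 3 or 4, ZT4 replicate 5, ZT12 replicates 2 or 4, ZT16 replicate 1 or ZT20 replicate 4). Over both diets it gave 12 to 21 (12 without normal chow ZT0 replicate 1 or high-fat ZT12 replicate 4; 13 without normal chow ZT4 replicate 3 or ZT12 replicates 2 or 5). It gave 5 to 22 lower members (22 without normal chow ZT4 replicate 4; 5 without normal chow ZT12 replicate 3 or high-fat ZT20 replicate 1; 6 or 7 without normal chow ZT0 replicate 1, ZT16 replicates 1 or 5 or ZT20 replicate 5, or high-fat ZT4 replicates 3 or 4, ZT8 replicate 1, ZT12 replicate 2 or ZT16 replicate 1) and 0 to 1 higher (1 without normal chow ZT4 replicate 2 or 4), a median change of -0.06 to -0.03 log2, 0 to 5 at ZT4 (5 without normal chow ZT4 replicate 2) and 0 at the other times, and 0 for the difference in rhythm and the interaction. Same-numbered libraries did not all deviate together: the median correlation was 0.04 over 119 pairs, 39 of them above 0.1. Over the 12 same-numbered pairs of the same time it was 0.10, with 6 above 0.1. For 475 pairs with different numbers it was -0.004, with 139 above 0.1. Whether libraries of 1 number were handled together was not tested beyond the replicate block. That block gave 14 rhythmic members over both diets and 7 members lower under the high-fat diet.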
